A study of Sus scrofa with 15 samples.

Results

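The cytosolic heat shock chaperones described here are 6 genes, HSPA8, HSPH1, HSP90AA1, DNAJB1, HSPB1 and BAG3. They were chosen by name, with earlier results of these data known, from a table of 26654 pig genes. All 6 passed the filter on low counts in every comparison. They were measured by RNA sequencing of polyadenylated RNA from the penile corpus cavernosum, an erectile tissue built of blood-filled spaces, in 15 libraries of Sus scrofa. The libraries form 5 groups of 3, labelled ECs+ implantation, implantation B, implantation A, defect and normal. The study's design pairs ECs+ implantation with implantation B, and compares every pair among implantation A, defect and normal. What ECs stands for and what distinguishes implantation A from implantation B are not explained in the labels, which also give no strain, age or time. In the ECs+ implantation samples a line of the description carries the name of normal 3, and the group was therefore identified by sample titles and column names. The labels do not state whether replicate libraries are from different animals, so p-values reflect only library-to-library spread, possibly technical.

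Heat shock chaperones bind unfolded or partly folded proteins and keep them from aggregating. HSP70 proteins do so in cycles of ATP hydrolysis that J-domain proteins start and nucleotide exchange factors end, and they hand some clients on to HSP90. The heat shock factor HSF1 drives many of these genes under heat or other protein stress, while the constitutive members are made in unstressed cells. In muscle, BAG3 and small heat shock proteins take part in clearing damaged filamin and other proteins under mechanical load.

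Total counts ran from 17234169 to 19644793 in 13 libraries, while defect 1 and defect 2 held 207769 and 250178. In those shallow libraries HSPH1 rested on 14 and 4 counts and DNAJB1 on 7 and 18, with exact 95% Poisson intervals of 7.65 to 23.5 and 1.09 to 10.2 counts for HSPH1 and of 2.81 to 14.4 and 10.7 to 28.4 for DNAJB1. These intervals cover counting error only. The other members rested on 34 (BAG3, defect 1) to 145 (HSP90AA1, defect 1) counts there. Markers of the labelled tissue were present in every library: 10 smooth muscle markers summed to between 2660 and 6631 TPM and 10 endothelial markers to between 857 and 2816 TPM. Markers of other cells also differed between groups. In ECs+ implantation 14 keratinocyte and urothelial markers summed to between 36.8 and 41.3 TPM, with KRT15 and UPK2 at 0 counts in all 3 libraries, against at least 1552 TPM in every other library. The 7 neutrophil markers in the table summed to between 12 and 22.4 TPM in ECs+ implantation, against at least 5082 TPM elsewhere. MMP9 was at 0 counts in ECs+ implantation. The neutrophil markers did not move alike. Against implantation B, S100A8, S100A9, S100A12 and MMP9 were at least 779-fold lower, but CSF3R 2.32-fold and CXCR2 3.38-fold lower. Against normal, 2 of the 7 were higher, 4 lower and 1 not called, beside 35.7% and 35.6% of all genes higher and lower. The part of these markers in the chaperone results was not tested.

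Levels are given first as TPM, the deposited values, scaled for transcript length and library depth, which allow genes to be compared with each other. HSPB1 was the most abundant of the 6 transcripts in every library and HSPH1 the least abundant. In bulk tissue, fewer cells of a type and less RNA per cell cannot be told apart.

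HSPA8 encodes the constitutive cytosolic HSP70 and lies on chromosome 9 (9:49982278-49986760, Sscrofa11.1). Its level was 168, 159 and 170 TPM in ECs+ implantation and 353, 347 and 352 TPM in implantation B. It was 251, 258 and 254 TPM in implantation A, 328, 267 and 275 TPM in defect, and 135, 152 and 144 TPM in normal. The order of the group means was implantation B, defect, implantation A, ECs+ implantation and normal, and no neighbouring groups in it overlapped.

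HSPH1 encodes HSP110, which acts as an exchange factor for HSP70, and lies on chromosome 11 (11:7733874-7759528). Its level was 15.04, 16.6 and 14.5 TPM in ECs+ implantation and 32.1, 32.0 and 32.3 TPM in implantation B. It was 39.7, 40.9 and 39.1 TPM in implantation A, 33.6, 8.10 and 15.8 TPM in defect, and 16.6, 15.6 and 16.7 TPM in normal. Implantation A stood above implantation B without overlap, whereas defect overlapped implantation B, normal and ECs+ implantation, and normal overlapped ECs+ implantation.

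HSP90AA1 encodes the inducible cytosolic HSP90 and is annotated on an unplaced scaffold at positions 917500 to 921977. Its level was 295, 300.5 and 317 TPM in ECs+ implantation and 511, 505 and 516 TPM in implantation B. It was 419, 435 and 439 TPM in implantation A, 538, 404 and 463 TPM in defect, and 282, 296 and 301 TPM in normal. Implantation B, defect and implantation A followed each other with overlaps through the wide defect range, and ECs+ implantation and normal overlapped below them.

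DNAJB1 encodes HSP40, a J-domain protein that stimulates HSP70, and lies on chromosome 2 (2:64761672-64764482). Its level was 53.3, 55.8 and 57.7 TPM in ECs+ implantation and 148, 144 and 142 TPM in implantation B. It was 112, 123 and 124 TPM in implantation A, 54.8, 119 and 94.2 TPM in defect, and 87.6, 79.4 and 79.0 TPM in normal. Implantation B was above every other library and ECs+ implantation below normal without overlap, while defect, with defect 1 at 54.8 TPM, overlapped implantation A, normal and ECs+ implantation.

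HSPB1 encodes HSP27, a small heat shock protein that holds unfolded proteins without using ATP, and lies on chromosome 3 (3:10038074-10039441). Its level was 1242, 1239 and 1246 TPM in ECs+ implantation and 1440.05, 1374 and 1354 TPM in implantation B. It was 1757, 1748 and 1837 TPM in implantation A, 1051, 1274 and 1271 TPM in defect, and 2036, 1839.6 and 1921 TPM in normal. HSPB1 was the one member of the 6 with its highest mean TPM in normal, and the lowest groups, ECs+ implantation and defect, overlapped.

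BAG3 encodes a co-chaperone that joins HSP70 to small heat shock proteins and to autophagy, and lies on chromosome 14 (14:129510240-129533998). Its level was 33.2, 33.7 and 33.0 TPM in ECs+ implantation and 124, 126 and 123 TPM in implantation B. It was 97.4, 97.9 and 94.3 TPM in implantation A, 105, 138 and 84.9 TPM in defect, and 66.8, 66.3 and 60.6 TPM in normal. ECs+ implantation lay below all the other libraries and normal below all those of implantation A, implantation B and defect.

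**Figure D1:**
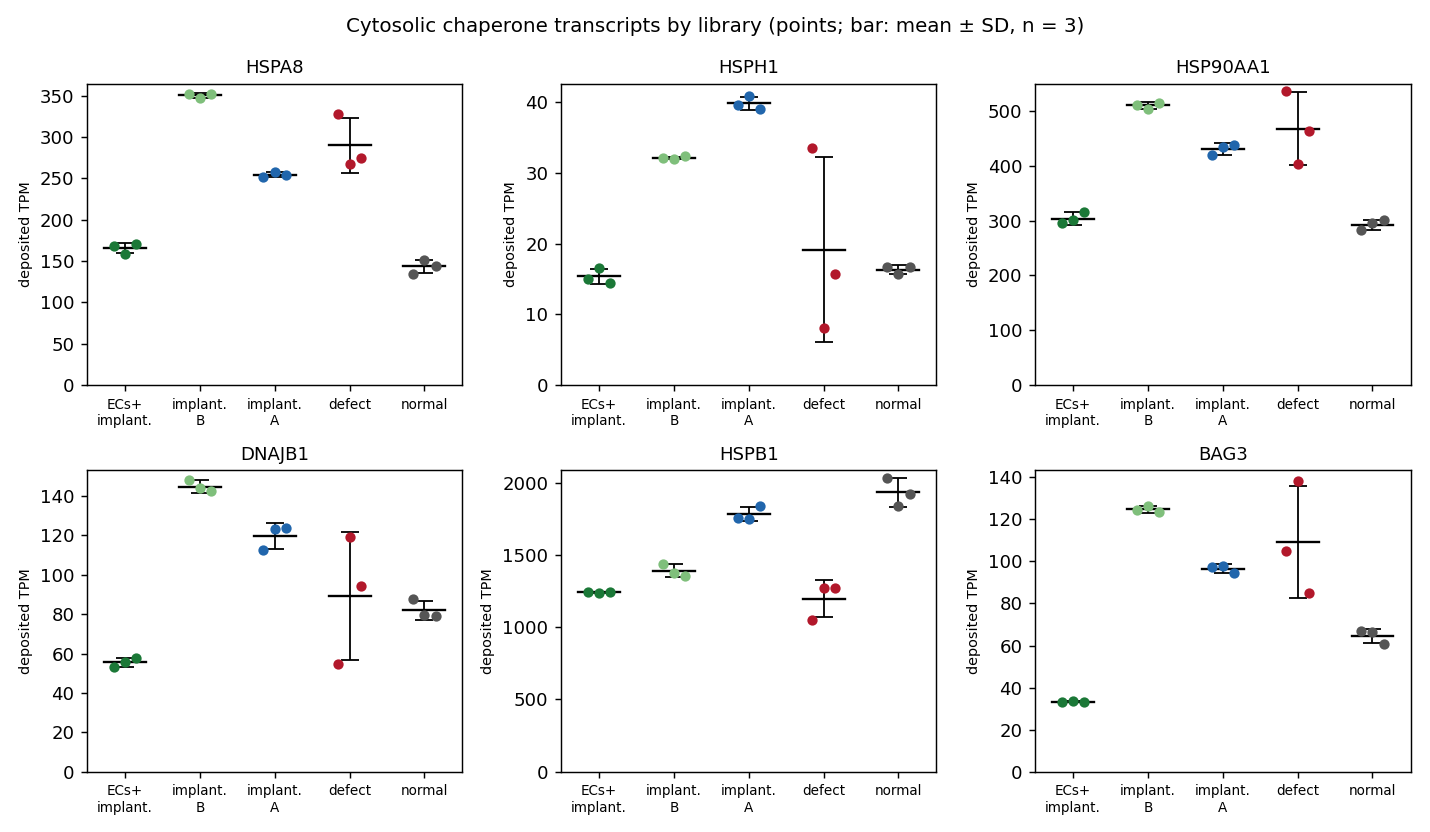
Deposited TPM (y axis, from 0) of each of the 6 chaperone genes by library in the 5 groups on the x axis, with points for libraries and bars for the mean ± SD of 3. HSPA8, HSP90AA1, DNAJB1 and BAG3 have their highest mean in implantation B, HSPH1 in implantation A and HSPB1 in normal, and the defect points of HSPH1 spread from 8.10 to 33.6 TPM.

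The composition of the 6 transcripts differed between groups. HSPB1 made up 68.4% ± 0.526 of their summed TPM in ECs+ implantation, 54.4% ± 0.746 in implantation B, 65.4% ± 0.648 in implantation A, 55.0% ± 4.53 in defect and 76.3% ± 1.22 in normal (SD, n = 3 each). The ratio of HSPA8 to HSPB1 TPM was 0.133 in ECs+ implantation, 0.253 in implantation B, 0.143 in implantation A, 0.246 in defect and 0.0745 in normal. No library of normal reached the ratio of any other library. The ratio of BAG3 to HSPA8 TPM was 0.201 ± 0.00959 in ECs+ implantation and at least 0.309 in every library of the other groups. The summed TPM of the 6 was 1817 ± 18.6 in ECs+ implantation, 2552 ± 48.6 in implantation B and 2722 ± 57.3 in implantation A. It was 2175 ± 56.1 in defect and 2531 ± 88.2 in normal (SD, n = 3 each). In CPM, not scaled for transcript length, the sum was 1262 to 1302 in ECs+ implantation and 1265 to 1279 in normal. It was 1638 to 1671 in implantation B, 1492 to 1538 in implantation A and 1379 to 1564 in defect. The order of the groups by this sum thus depended on the measure.

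**Figure D2:**
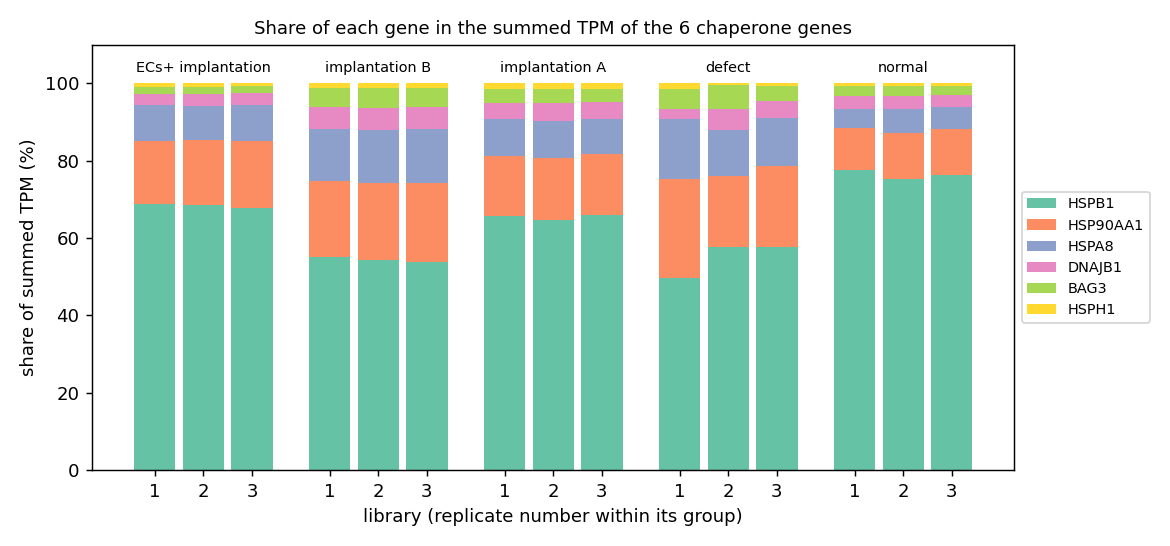
Share (y axis, percent) of each of the 6 genes in their summed TPM, with 1 stacked bar per library and the replicate number within its group on the x axis. HSPB1 takes 76.3% on average in normal, 54.4% in implantation B and 55.0% in defect.

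Differences between groups were tested on the deposited counts with edgeR's quasi-likelihood test and Benjamini-Hochberg adjustment over all genes tested, with an adjusted p under 0.05 called. The fold changes are on the count scale normalised by trimmed means (TMM), which can differ from a ratio of TPM. The split of calls over all genes depended on the scaling, more in some comparisons than in others. By TMM 5715 genes were higher and 5692 lower in defect than in normal, and by library size alone 3456 and 8894, with a median log2 fold change of all genes of -0.05 and -0.41. On log2 TPM plus 1 tested with limma the numbers were 2562 and 5442. That setting changes the test as well as the scaling, so its numbers are not an effect of scaling alone. In implantation A against defect they were 3642 and 3823 by TMM, 7931 and 1761 by library size and 4694 and 959 on TPM. In implantation A against normal they were 5755 and 5767 by TMM, 5185 and 6532 by library size and 2231 and 1068 on TPM. In ECs+ implantation against implantation B they were 6501 and 6547 by TMM, 8687 and 4894 by library size and 4347 and 8399 on TPM. In implantation B against implantation A they were 4978 and 4329 by TMM, 2383 and 8512 by library size and 1012 and 2525 on TPM. In implantation B against normal they were 6796 and 6715 by TMM, 4629 and 9431 by library size and 3653 and 4185 on TPM. In ECs+ implantation against normal they were 6539 and 6517 by TMM, 5681 and 7575 by library size and 1666 and 5787 on TPM. Changes of the members are therefore relative to the TMM scaling. The shares of all genes called, given with the members of each comparison, apply to the counts of the gene lists too.

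Defect was set against normal. HSPA8, HSP90AA1, BAG3 and DNAJB1 rose, HSPB1 fell and HSPH1 was not called. Thus 4 of 6 members were higher, where 32% of all genes tested were, and 1 was lower, where 31.9% were (63.9% in either direction). HSPA8 averaged 290 ± 33.3 TPM in defect and 143 ± 8.39 TPM in normal (SD, n = 3 each), a log2 fold change of 1.11 ± 0.0763 (SE, edgeR adjusted p = 7.03e-24). HSP90AA1 was 1.74-fold higher (edgeR adjusted p = 1.91e-15) and BAG3 1.56-fold higher (adjusted p = 2.53e-11). HSPB1 averaged 1199 ± 128 TPM in defect and 1932 ± 98.5 TPM in normal, a log2 fold change of -0.53 ± 0.0824 (adjusted p = 3.54e-08). The HSPH1 libraries of defect lay on both sides of normal, with a log2 fold change of 0.17 ± 0.107 (adjusted p = 0.166), or -0.20 scaled by library size. DNAJB1 was 1.29-fold higher (adjusted p = 3.42e-04), a call that rested on defect 3, since without that library its log2 fold change was 0.07 (adjusted p = 0.892). The median log2 fold change was 0.51 over the 6 members and -0.05 over all genes tested. Without defect 3 the defect group is its 2 shallow libraries. Then 1391 of 18208 genes tested were higher and 2130 lower (19.3% in either direction), with a median log2 fold change over all genes of -0.43. Calls were thus lost across the table, and values without defect 3 in defect against normal are relative to that median.

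Among the relatives and partners of the members, calls in defect against normal went in both directions, as they did over all genes. Of 60 tested cytosolic relatives, co-chaperones and regulators, 21 were higher, 16 lower and 23 not called. Of all genes tested, 32% were higher and 31.9% lower. HSP70.2, the RefSeq entry with the synonyms HSPA1A and HSPA1B and thus the stress-inducible HSP70, went the other way from HSPA8, at 475, 676 and 533 TPM in defect and 1101, 1043 and 977 TPM in normal (log2 fold change -0.80 ± 0.0847, adjusted p = 9.26e-14). It lies inside the annotated span of HSPA1L on chromosome 7 (7:23925929-23927854), and the sources used here do not say how counting treated strand. HSPA4L (2.23-fold), HSPA4 (1.56-fold), both HSP110 relatives, and the other tested HSP70 genes gave 5 of 7 higher and 1 lower. Of those 5 calls 0 were left without defect 3, where few calls were left over all genes. HSPA4L stood there at -0.16, above the median of all genes, and HSPA4 at 0.41 on the log2 scale.

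Among 5 tested small heat shock proteins, which bind clients as HSPB1 does, 2 were higher and 2 lower in defect, and 1 and 0 without defect 3. HSPB6, abundant in smooth muscle, stood at 719 ± 66.2 TPM in defect and 227 ± 12.2 TPM in normal, 3.24-fold higher (adjusted p = 8.54e-36). HSPB8, a partner of BAG3, was 1.40-fold higher (adjusted p = 3.50e-05) and HSPB2 2.49-fold lower (adjusted p = 6.32e-09). Neither was called without defect 3, at 0.70 and -1.18 on the log2 scale. CRYAB, the small heat shock protein alpha B crystallin, was not called, with a log2 fold change of -0.07. Of the exchange factors, BAG2 was 2.49-fold higher, but without defect 3 its log2 fold change was -0.41 (adjusted p = 0.861), close to the median of all genes there. Among autophagy partners of BAG3, SYNPO2 was 3.22-fold higher and its client FLNC, a filamin, 2.13-fold lower.

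Of 16 tested HSP90 relatives and co-chaperones, 1 was higher and 6 were lower in defect than in normal. The number higher was 2 without defect 2 and 0 without defect 3. FKBP8, an HSP90-binding immunophilin, was 1.78-fold lower (adjusted p = 9.08e-15). HSP90AB1, the constitutive HSP90, was not called at a log2 fold change of 0.07, so that the ratio of HSP90AA1 to HSP90AB1 TPM was 1.11 ± 0.0650 in defect and 0.649 ± 0.0171 in normal. HSP90AB1 overlaps SLC35B2 in the annotation. Of 10 J-domain co-chaperones 2 were higher and 3 lower. Of these 10, the number higher was 4 without defect 2 and 0 without defect 3. DNAJB2 was 1.99-fold lower. DNAJA1 was 1.36-fold higher, and stood at -0.07 on the log2 scale without defect 3, above the median of all genes there. Of 8 subunits of the CCT chaperonin, which folds actin and tubulin, 6 were higher, and by library size 4 were higher and 2 lower. Without defect 3 it was 1, with the loss of calls over all genes given above. CCT2 was 1.59-fold higher, and CCT8, 1.57-fold higher in the whole set, stood at -0.13 on the log2 scale without that library, also above the median. HSF1 itself was 1.92-fold lower in defect (adjusted p = 2.93e-13), and not called without defect 3 at -0.82 (adjusted p = 0.0615).

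The endoplasmic reticulum (ER) chaperones, which fold secreted proteins, gave 12 of 12 higher in defect than in normal, and 10 of 12 by library size alone or on TPM. HSPA5, the ER HSP70, averaged 146 ± 20.9 TPM in defect and 71.7 ± 5.99 TPM in normal, a log2 fold change of 1.24 ± 0.0801 (adjusted p = 1.41e-25). HSP90B1, the ER HSP90, was 2.38-fold higher. SERPINH1, the collagen chaperone HSP47, was 1.42-fold higher. Over the same groups the 10 fibroblast markers summed to 38839 ± 895 TPM in defect and 4338 ± 39.3 TPM in normal, and 10 of 10 were called higher. Their part in the chaperone differences was not tested.

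Implantation A was compared with normal, with the same normal libraries as for defect. All 6 members were called, 5 higher and 1 lower, beside 32.2% and 32.3% of all genes (64.5% in either direction). HSPH1 had the largest fold change of the 6, with 39.9 ± 0.916 TPM in implantation A and 16.3 ± 0.604 TPM in normal (log2 fold change 1.18 ± 0.0704, adjusted p = 5.06e-27). HSPA8 was 1.65-fold, BAG3 1.39-fold, HSP90AA1 1.37-fold and DNAJB1 1.35-fold higher, with adjusted p of at most 2.91e-08. HSPB1 was 1.20-fold lower (adjusted p = 1.06e-04). On log2 TPM tested with limma, HSPH1, DNAJB1 and HSPB1 kept their direction but were not called. That fit estimates spread over all 9 libraries, including defect, where HSPH1 ran from 8.10 to 33.6 TPM. None of these genes overlapped in TPM between implantation A and normal.

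The HSP70 relatives gave 4 higher and 2 lower of 7 in implantation A against normal. HSPA4L was 2.02-fold, HSPA4 1.60-fold and HSPA2 1.47-fold higher, while HSP70.2 was 1.36-fold lower at 812, 821 and 839 TPM in implantation A against 1101, 1043 and 977 TPM in normal (adjusted p = 2.21e-08). DNAJA1 was 1.62-fold higher, among 6 of 10 J-domain co-chaperones that rose and 3 that fell. HSPB6 was 1.83-fold and HSPB8 1.62-fold higher, and CRYAB was not called at -0.05 on the log2 scale. BAG2 was 3.03-fold and SYNPO2 3.79-fold higher. HSP90AB1 was not called at -0.13, HSF1 was 1.5-fold lower, and 10 of 12 ER chaperones were higher, among them HSPA5 at 1.82-fold and SERPINH1 at 1.44-fold.

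Implantation A was also compared with defect. HSPH1 and HSPB1 were higher and HSPA8 and HSP90AA1 lower, thus 2 of 6 each way, beside 20.4% of all genes higher and 21.4% lower (41.8% in either direction). HSPH1 averaged 39.9 ± 0.916 TPM in implantation A and 19.1 ± 13.1 TPM in defect, a log2 fold change of 1.02 ± 0.103 (adjusted p = 3.38e-14). HSPA8 averaged 254 ± 3.22 TPM in implantation A and 290 ± 33.3 TPM in defect (log2 fold change -0.39 ± 0.0756, adjusted p = 7.49e-06). HSP90AA1 was 1.27-fold lower (adjusted p = 1.51e-04) and HSPB1 1.20-fold higher (adjusted p = 0.00735). DNAJB1 (0.06) and BAG3 (-0.17) were not called, and both overlapped between the groups. Without defect 3, HSPH1 (0.95, adjusted p = 0.0504), HSPA8 (-0.27, adjusted p = 0.180) and HSP90AA1 (-0.17, adjusted p = 0.320) were not called, which left 1 member higher and 0 lower. Over all 18208 genes tested that fit called 935 higher and 520 lower (7.99% in either direction), with a median log2 fold change of 0.39, against 0.02 with all libraries.

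Of the 60 tested partners, 16 were higher in implantation A than in defect, 11 were lower and 33 were not called. Of all genes tested, 20.4% were higher and 21.4% lower. Markers of cell types also differed between these groups. Of 10 smooth muscle markers 9 were higher, with a sum of 6588 ± 38.5 TPM in implantation A and 2695 ± 42.9 TPM in defect. Of 10 fibroblast markers 9 were lower, with a sum of 19942 ± 145 TPM in implantation A and 38839 ± 895 TPM in defect. All 9 tested macrophage markers were lower, and the list summed to 482 ± 11.6 TPM in implantation A and 1197 ± 85.4 TPM in defect. The part of these lists in the chaperone differences was not tested. HSP70.2 was 1.28-fold higher (adjusted p = 3.59e-04). FKBP4, an HSP90 immunophilin, was 1.43-fold higher, and at 1.13 on the log2 scale without defect 3. DNAJB4 (1.78-fold) and DNAJB5 (1.92-fold), close relatives of DNAJB1, were higher, but neither was called without defect 3 at 0.77 and 1.4985. HSPB6 was 1.78-fold lower (adjusted p = 8.71e-17), while HSPB8 (0.21) and CRYAB (0.02) were not called. The filamins FLNC and FLNA were 2.24-fold and 1.49-fold higher. Of 12 ER chaperones 9 were lower, among them CALR at 1.83-fold, and 3 without defect 3. By library size alone 6 were lower and 2 higher. HSPA5 was 1.3-fold lower and was not called without defect 3 at -0.07. SERPINH1 was not called at 0.02. HSF1 was 1.28-fold higher, and not called without defect 3 at 0.25. HSP90AB1 was 1.15-fold lower (adjusted p = 0.0390), a call lost without any one of the 3 implantation A libraries and at 0.07 without defect 3 and 0.04 by library size alone. Both values lie below the median of all genes at those settings, 0.39 and 0.33.

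ECs+ implantation was compared with implantation B, both deeply sequenced. BAG3, DNAJB1, HSPA8, HSPH1 and HSP90AA1 fell, 5 of 6 where 38.1% of all genes were lower, and 0 rose where 37.8% were higher (75.8% in either direction). BAG3 averaged 33.3 ± 0.334 TPM in ECs+ implantation and 125 ± 1.55 TPM in implantation B (SD, n = 3 each), a log2 fold change of -1.65 ± 0.0359 or 3.14-fold lower on the count scale (adjusted p = 6.80e-40). DNAJB1 was 2.21-fold (adjusted p = 9.92e-28), HSPA8 1.78-fold (adjusted p = 4.19e-32), HSPH1 1.75-fold (adjusted p = 3.25e-19) and HSP90AA1 1.41-fold lower (adjusted p = 1.97e-25). None of these 5 overlapped between the groups on the TPM scale. HSPB1 was not called on counts, with a log2 fold change of 0.00 ± 0.0269 (adjusted p = 0.960), though its TPM did not overlap between the groups. Scaled by library size alone it was called higher, at 0.24 (adjusted p = 4.18e-11), and on log2 TPM tested with limma it was called lower, at -0.16 (adjusted p = 3.51e-04). The median log2 fold change of all genes was 0.02 by TMM, 0.26 by library size and -0.17 on log2 TPM plus 1. HSPB1 lay close to that median at each of these settings.

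**Figure D3:**
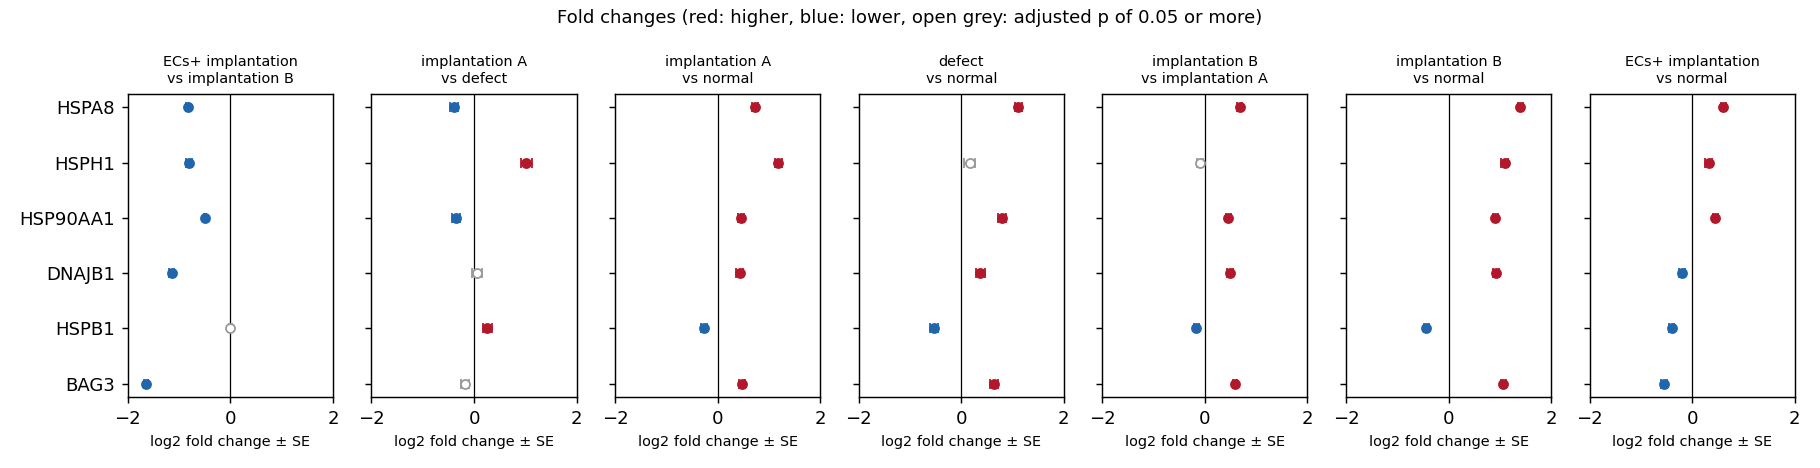
Log2 fold change ± SE (x axis) of the 6 genes (rows) in 7 comparisons, with filled points for an adjusted p under 0.05 and open points otherwise. In ECs+ implantation against implantation B, BAG3 lies farthest left at -1.65 and HSPB1 at 0.00, and in implantation B against normal HSPA8 lies farthest right at 1.40.

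Of 7 tested relatives of HSP70, 4 were lower and 1 higher in ECs+ implantation than in implantation B, or 4 and 2 by library size and 6 and 1 on TPM. HSP70.2 stood at 366, 362 and 377 TPM in ECs+ implantation and 838, 846 and 825 TPM in implantation B, 1.91-fold lower (adjusted p = 4.04e-38). HSPA4L (2.96-fold), HSPA2 (2.82-fold) and HSPA4 (1.89-fold) were lower too. Of 10 J-domain genes 5 were higher and 4 lower, where 37.8% and 38.1% of all genes were, or 1 and 4 on TPM. DNAJB5 was 2.14-fold lower and DNAJB4 1.36-fold higher.

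Of 16 HSP90 relatives and co-chaperones 8 were higher and 5 lower, beside 37.8% and 38.1% of all genes, or 6 and 8 on TPM. FKBP5, an immunophilin of steroid receptors and a glucocorticoid target, was 2.69-fold lower and FKBP4 1.64-fold lower. FKBP8 was 1.86-fold and PTGES3, the p23 co-chaperone, 1.72-fold higher. HSP90AB1 was 1.32-fold higher (adjusted p = 4.02e-22) while HSP90AA1 was lower, and the ratio of HSP90AA1 to HSP90AB1 TPM was 0.673 ± 0.0190 in ECs+ implantation and 1.25 ± 0.0126 in implantation B. On the TPM scale HSP90AB1 averaged 452 ± 12.5 in ECs+ implantation and 408.5 ± 3.59 in implantation B.

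Small heat shock proteins gave 3 of 5 higher and 2 lower in ECs+ implantation. HSPB6 averaged 88.3 ± 0.569 TPM in ECs+ implantation and 531 ± 12.2 TPM in implantation B and was 5.09-fold lower on the count scale (adjusted p = 1.33e-49). CRYAB was 1.63-fold higher and HSPB8 1.23-fold lower. Of the partners of BAG3, SYNPO2 was 1.99-fold lower while the autophagy receptor SQSTM1 was 1.45-fold higher. BAG2 was 2.25-fold lower and BAG4 1.60-fold higher, and 5 of 8 CCT subunits rose and 1 fell, with CCT7 (1.52-fold) and CCT4 (1.56-fold) among the higher, against 3 higher and 3 lower on TPM. HSF1 was 1.20-fold and HSF2 1.53-fold higher.

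The ER chaperones gave 12 of 12 lower in ECs+ implantation against implantation B, with HSPA5 1.65-fold and SERPINH1 2.27-fold lower. By library size alone 9 were lower and 1 higher. Immediate early genes, which are switched on within minutes of stimulation, were lower in 17 of 17 cases. Their summed level was 3551 ± 37.3 TPM in ECs+ implantation and 11609 ± 60.6 TPM in implantation B. EGR1 was 5.41-fold, JUNB 4.71-fold and FOSB 2.57-fold lower. The keratinocyte and urothelial markers summed to 39.1 ± 2.28 TPM in ECs+ implantation and 3664 ± 38.2 TPM in implantation B, with 11 of 12 tested lower. The 10 fibroblast markers summed to 4459 ± 55.8 TPM in ECs+ implantation and 34418 ± 287 TPM in implantation B, with 10 of 10 lower. The macrophage markers summed to 435 ± 4.84 TPM in ECs+ implantation and 1129.7 ± 14.7 TPM in implantation B, with 8 of 9 tested lower. Endothelial markers summed to 2155 ± 27.0 TPM in ECs+ implantation and 862 ± 4.12 TPM in implantation B, with 9 of 10 higher. Of 10 smooth muscle markers 8 were higher. The part of any of these lists in the chaperone differences was not tested.

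**Figure D4:**
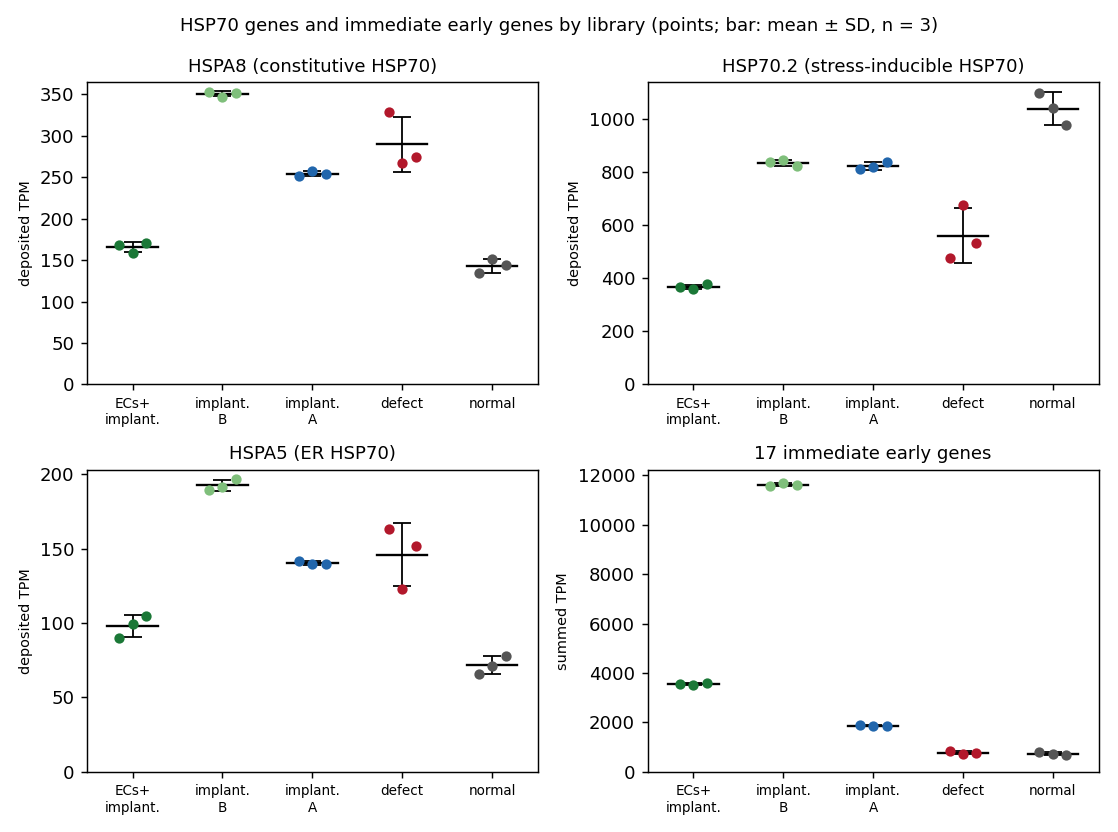
TPM (y axes, from 0) of HSPA8, HSP70.2 and HSPA5 and the summed TPM of 17 immediate early genes by library in the 5 groups on the x axis, with points for libraries and bars for the mean ± SD of 3. HSPA8 and HSPA5 are lowest in normal while HSP70.2 is highest there, and the immediate early sum is 11609 TPM in implantation B.

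Outside the study's pairs, implantation B was set against implantation A in a fit of all 15 libraries. HSPA8, BAG3, DNAJB1 and HSP90AA1 rose by 1.60-fold, 1.5-fold, 1.40-fold and 1.37-fold, 4 of 6 beside 27.2% of all genes, with adjusted p of at most 1.18e-11. HSPB1 was 1.12-fold lower (adjusted p = 0.00180), 1 of 6 beside 23.6% (50.8% of all genes in either direction). HSPH1 was not called at -0.10 (adjusted p = 0.174), though its TPM in implantation B lay below that in implantation A without overlap. HSP70.2 (1.18-fold), HSPA6 (2.29-fold), FKBP5 (1.32-fold), DNAJA1 (1.31-fold) and HSPB6 (1.37-fold) were higher. HSPB8 was 1.11-fold higher, a call lost without implantation A 2 (0.11, adjusted p = 0.224) or any one implantation B library. CRYAB was 1.18-fold lower. HSF1 was 1.14-fold lower and not called without implantation A 1 (-0.15, adjusted p = 0.104) or implantation B 1 (-0.15, adjusted p = 0.0909). HSP90AB1 (0.10) and SERPINH1 (0.04) were not called. HSP70.2 stood at -0.01 and HSPB8 at -0.09 on the log2 scale by library size alone. Both values lie above the median of all genes at that setting, -0.25. Of 12 ER chaperones 11 were higher (8, and 1 lower, by library size), with HSP90B1 at 1.61-fold and HSPA5 at 1.59-fold. All 17 immediate early genes were higher, FOSB by 51.4-fold, FOS by 28.4-fold and EGR1 by 16.9-fold.

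Implantation B against normal gave 5 of 6 members higher beside 37.1% of all genes, and HSPB1 lower beside 36.7% (73.8% in either direction). HSPA8 was 2.64-fold higher (log2 fold change 1.40 ± 0.0462, adjusted p = 1.80e-40), HSPH1 2.13-fold, BAG3 2.09-fold, DNAJB1 1.89-fold and HSP90AA1 1.88-fold. HSPB1 was 1.35-fold lower (adjusted p = 3.13e-13). HSP70.2 was lower by 1.15-fold (adjusted p = 1.04e-04). DNAJA1 (2.13-fold), HSPA4 (1.86-fold), HSPA2 (1.71-fold), HSPA4L (2.23-fold), BAG2 (3.63-fold), HSPB6 (2.50-fold) and HSPB8 (1.81-fold) were higher. CRYAB was 1.22-fold and HSF1 1.71-fold lower. HSP90AB1 was not called at -0.03, and called lower without normal 2 (-0.16, adjusted p = 0.00105) or normal 3 (-0.19, adjusted p = 9.37e-08). HSPA5 was 2.90-fold and SERPINH1 1.48-fold higher, among 12 of 12 ER chaperones. FOS and EGR1, of 17 higher immediate early genes, rose by 9.71 and 6.39 on the log2 scale.

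ECs+ implantation against normal gave 3 of 6 members higher beside 35.7% of all genes and 3 lower beside 35.6% (71.3% in either direction). HSPA8 was 1.52-fold (adjusted p = 2.01e-19), HSP90AA1 1.37-fold (adjusted p = 1.00e-13) and HSPH1 1.25-fold higher (adjusted p = 2.04e-05). BAG3 was 1.47-fold (adjusted p = 1.25e-15), HSPB1 1.32-fold (adjusted p = 7.09e-12) and DNAJB1 1.14-fold lower (adjusted p = 0.00379). DNAJB1 was not called without normal 1 (-0.13, adjusted p = 0.0628). On log2 TPM HSPA8 alone was called higher, HSP90AA1 stood at 0.05 and HSPH1 turned to -0.08. HSP70.2 was 2.15-fold lower at 366, 362 and 377 TPM in ECs+ implantation against 1101, 1043 and 977 TPM in normal (adjusted p = 1.53e-32). HSPA2 (1.61-fold), FKBP5 (1.78-fold), HSPB6 (1.99-fold), HSF1 (1.39-fold) and SERPINH1 (1.49-fold) were also lower. CCT2 (2.27-fold), PTGES3 (2.25-fold), DNAJB4 (2.33-fold), HSPB8 (1.51-fold), CRYAB (1.37-fold), HSP90AB1 (1.32-fold) and HSPA5 (1.80-fold) were higher. FOS and EGR1 rose by 8.04 and 3.99 on the log2 scale, among 16 of 17 higher immediate early genes.

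**Figure D5:**
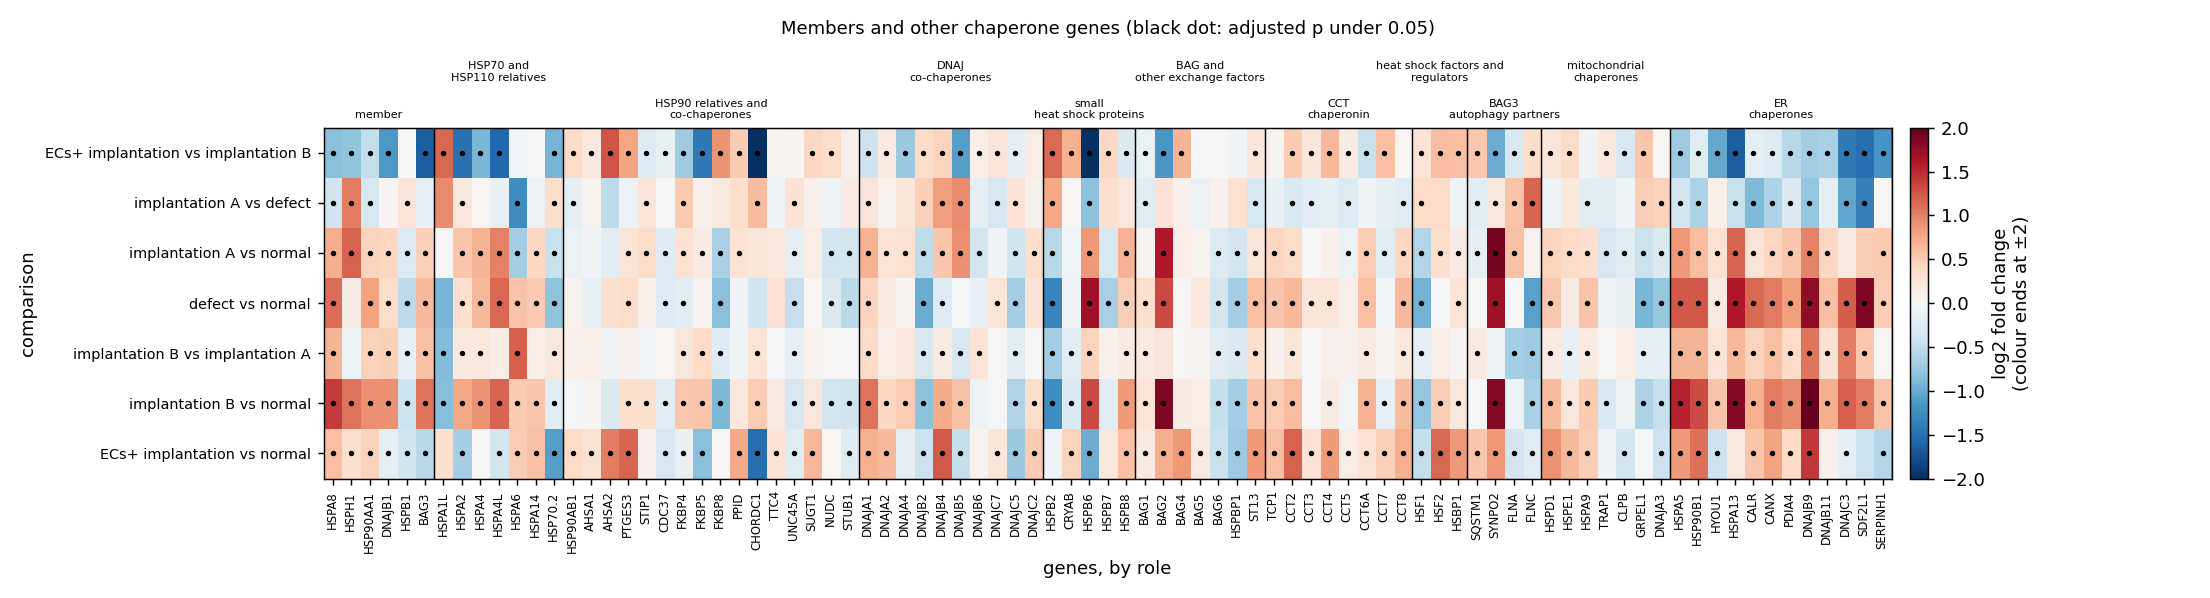
Log2 fold change (colour, red higher and blue lower, ending at 2 either way) of the members and other chaperone genes by role (x axis) in 7 comparisons (y axis), with a black dot for an adjusted p under 0.05. The ER chaperones are blue throughout in ECs+ implantation against implantation B and red throughout in defect against normal, while the HSP90 and J-domain co-chaperones are mixed.

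How far each member varied was set beside 5960 genes with a mean log2 CPM of at least 5. The group means used here were of TMM-scaled CPM plus 1, not of TPM. Those of BAG3 spanned 3.03-fold, HSPA8 2.63-fold, HSPH1 2.24-fold, DNAJB1 2.14-fold, HSP90AA1 1.88-fold and HSPB1 1.63-fold. BAG3 stood at the 88.2 percentile of these genes and HSPB1 at the 34.8 percentile. Likeness of pattern was measured as the root mean square difference of centred log2 group means over the 5 groups, as a description with no test. HSPA8 and HSP90AA1 were the closest pair of members at 0.163. HSP90AA1 ranked 119 among the 5959 other genes in likeness to HSPA8, and HSPA8 ranked 374 in likeness to HSP90AA1. Over all pairs of members the ranks ran from 119 to 5381, the last for BAG3 in likeness to HSPB1.

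The genes with the nearest patterns were not other members. They were EPS15 (0.0274), TOR1AIP2 and ATRX for HSPA8, and SECISBP2L (0.0227), ZNF292 and VMA21 for HSP90AA1. For HSPH1 they were MX1 (0.0831), HERC5 and ZNFX1, and for DNAJB1 GOLGA3 (0.0447), PDZD8 and ZFHX4. For HSPB1 they were NDST2 (0.0235), C2H19orf43 and VPS72, and for BAG3 PCOLCE (0.0648), NFIX and SPAG9. The defect means include the shallow libraries, and their spread was wide for some of these genes. In defect EPS15 stood at 41.5 ± 13.7 TPM and C2H19orf43 at 231 ± 130 TPM (SD). MX1 at 62.9 ± 2.90 TPM and PCOLCE at 708 ± 19.7 TPM varied less. HSPH1 itself stood at 39.4 ± 24.8 TMM-scaled CPM in defect. How far the named neighbours and ranks depend on this spread was not tested.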

How the data were processed

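Pig corpus cavernosum RNA was sequenced in 15 polyadenylated libraries (TruSeq RNA Library Prep Kit v2). The submitters' processing notes list the build Sscrofa11.1 and the tools fastp, HISAT2, HTSeq and DESeq2, all without versions. The authors deposited raw counts per gene and, in a second table, TPM values whose computation is not described. Columns were matched to samples by title, and positions come from RefSeq's annotation of that build.

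The counts were filtered with filterByExpr, scaled by TMM and tested with edgeR 4.0.16 (glmQLFit robust, glmQLFTest, two-sided, Benjamini-Hochberg adjustment over all genes tested, threshold 0.05) in R 4.3.3. Implantation A, defect and normal shared a fit of 9 libraries, ECs+ implantation and implantation B a fit of 6, and the other comparisons used all 15. The SE of a log2 fold change is from the fitted model. TPM, as deposited, gave levels and ratios, with the SD over 3 libraries. Total counts were 207769 to 250178 in defect 1 and 2 and at least 17234169 elsewhere.

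The members and gene lists were chosen with earlier results of these data known. Their counts of calls, set beside the shares of all genes, are therefore description and no test of the lists. Genes named from a list were up to 4 with the smallest p in a comparison, plus HSP70.2, HSP90AB1, CRYAB, HSPB8, HSF1, SERPINH1 and HSPA5 whatever their result. HSPA1A and HSPA1B have no row of their own. Lists with no result named here were not described further. A gene of one list is not reported here. Alternatives were other scalings and filters, DESeq2 1.42.0, limma 3.58.1 with voom weights or on log2(TPM + 1 or 0.1), fits of other sets of libraries or without single ones, stricter thresholds and a replicate block. The scripts were tested on simulated counts.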

Additional observations from a re-analysis of the deposited data

How the results depend on the processing

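Of 810 member results under an alternative setting, 740 kept their direction and side of the threshold, 50 lost and 6 gained a call and 14 reversed. The numbers of members called higher or lower moved as follows. With a fold change of at least 1.5 required, 0 members were lower in defect against normal, 1 higher and 0 lower in implantation A against defect, 2 and 0 in implantation A against normal and in implantation B against implantation A, 0 lower in implantation B against normal, and 1 higher and 0 lower in ECs+ implantation against normal. In implantation A against defect 0 were lower by library size, 1 was higher and 1 lower by limma-voom, 0 were lower on TPM with a pseudocount of 1, and 1 higher and 0 lower with 0.1. With either pseudocount, 3 were higher and 0 lower in implantation A against normal, 2 higher in implantation B against implantation A and 1 higher in ECs+ implantation against normal. By library size 1 was higher in ECs+ implantation against implantation B. In implantation B against implantation A 2 were lower with DESeq2 size factors, by library size or with those groups alone. Leaving out 1 library gave 1 to 2 higher and 0 to 2 lower in implantation A against defect and 3 to 4 higher in defect against normal. Reversals, as log2 fold changes, were these. In defect against normal, HSPH1 stood at -0.20 by library size and -0.0053 on TPM plus 0.1. HSP90AB1 stood at -0.23 by library size, -0.11 on TPM with either pseudocount and -0.20 without defect 3 (up to 0.15 without others), and BAG2 at -0.31 and -1.28 on TPM plus 1 and 0.1 and -0.41 without defect 3. Without defect 3, HSPA4L (-0.16), CCT8 (-0.13) and DNAJA1 (-0.0656) changed sign while the median of all genes moved to -0.43, below all 3 values, and the highest values without another library were 1.43 for BAG2, 1.29 for HSPA4L, 0.71 for CCT8 and 0.51 for DNAJA1. In implantation A against defect, BAG3 was 0.13 and HSP90AB1 0.0352 by library size, 0.0822 and 0.0824 on TPM plus 1 and 0.1 and -0.28 to 0.0693 without single libraries, CRYAB -0.016 without implantation A 3, and SERPINH1 -0.0614 without both shallow libraries, -0.0147 without defect 1, -0.0159 without defect 2 and up to 0.20 without defect 3. CRYAB was 0.14 on TPM in implantation A against normal. In ECs+ implantation against implantation B, HSPB1 was -0.0138 with DESeq2 or its size factors, -0.0069 with no filter, -0.16 on TPM, and -0.022 to 0.0199 without single libraries. In implantation B against implantation A, by library size HSP70.2 was -0.014, HSPB8 -0.0913, SERPINH1 -0.21 and HSP90AB1 -0.15. On TPM HSPB8 was -0.0539 and -0.0548, SERPINH1 -0.18 and HSP90AB1 -0.12, and SERPINH1 was -0.0167 with DESeq2 or its size factors. HSP90AB1 was -0.19 to 0.0105 in implantation B against normal without single libraries, and HSPH1 -0.0849 and -0.0898 on TPM plus 1 and 0.1 in ECs+ implantation against normal. The cause of these changes was not tested. The median of all genes moved as well. By library size it was -0.41 in defect against normal, 0.33 in implantation A against defect, 0.26 in ECs+ implantation against implantation B and -0.25 in implantation B against implantation A. On TPM plus 1 it was -0.28, 0.35, -0.17 and -0.14 in the same order, and -0.25 in ECs+ implantation against normal. With CPM in place of TPM 25 of 30 group ranks were the same. Deviations of same-number libraries from their group means correlated between -0.225 and 0.305. Such values cannot tell whether replicate numbers pair the libraries, because small deviations hold much counting error. A replicate block changed no member call, with HSPA8 at 1.10 in defect against normal. Depth limits the defect group most, where HSPH1 and DNAJB1 rest on 4 to 18 counts in the shallow libraries.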
